A study of Mus musculus with 6 samples.

Results

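Cardiac transcription factors bind the promoters and enhancers of heart muscle genes. GATA4 and GATA6 are zinc-finger proteins, NKX2-5 is a homeodomain protein, MEF2A, MEF2C and MEF2D are MADS-box proteins, TBX5 and TBX20 are T-box proteins and HAND2 is a basic helix-loop-helix protein. Myocardin, encoded by Myocd, does not bind DNA by itself but acts through serum response factor. These proteins build the heart in the embryo and stay on in the adult ventricle, where they are known for driving contractile genes and, under pressure overload, the natriuretic peptide and fetal sarcomere genes. Their level was followed here in left ventricles that lacked the histone H3K9 demethylase Kdm3a.

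The 10 genes Gata4, Gata6, Nkx2-5, Mef2a, Mef2c, Mef2d, Tbx5, Tbx20, Hand2 and Myocd were taken as a set, out of 19057 genes with a named probe on the array, and every probe annotated to them was read. The samples were 2 KO TAC, 2 WT TAC, 1 KO Sham and 1 WT Sham left ventricles. KO mice lacked Kdm3a in the whole animal and WT mice carried it. TAC, transverse aortic constriction, narrows the aorta so that the left ventricle pumps against pressure, and Sham mice had surgery without the band. All mice were labelled as male c57/BL6, operated at 6 to 8 weeks of age and harvested 3 weeks later. The study's text describes a KO line on a mixed background and a separate one on C57/Bl6J, without saying which was profiled, and gives a later time after surgery than the labels, which could not be settled. The labels do not say that replicates were separate animals, so each p-value is set against the variation among arrays, which may in part be technical.

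Of the 10 genes, 9 had a probe and Mef2a had none. The 9 genes had 22 probes. A probe was counted as above background where its intensity exceeded the 99th percentile of 1542 probes for olfactory, vomeronasal and taste receptors, a level between 149.0 and 155.1 on the 6 arrays. By this measure 14 probes were above background on at least 2 arrays and were kept, 10 of them on all 6 arrays, and 8 were not kept. Tbx5, a T-box factor of the atria and left ventricle, had 2 probes and neither was kept. Its brighter probe read 147 and 148 in KO TAC, 154 and 146 in WT TAC, 144 in KO Sham and 154 in WT Sham. It passed the background level only in WT TAC 1, so no fold change is given for Tbx5. The remaining 8 genes were tested, 7 of them with a probe above background on every array. Mef2d was above background on 2 arrays only. Each gene is given by its brightest kept probe, and levels are intensities as deposited, on a linear scale. Different probes bind with different strength, so levels are compared between arrays and not between genes.

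The arrays were checked against their labels. On 1 probe of Kdm3a (ILMN_3118169) the intensity was 137 and 143 in KO TAC, 296 and 264 in WT TAC, 129 in KO Sham and 292 in WT Sham, above background in the 3 WT arrays and in no KO array. The 2 other Kdm3a probes above background were lower in each KO array than in any WT array but stayed above background, and where they lie relative to the deleted part was not stated in the sources used here. All 9 cardiomyocyte markers with a probe were above background, as were 3 of 7 atrial markers, while Myl7, Sln, Nr2f2 and Bmp10 were not. Those 3 summed to 1100 and 1248 in KO TAC, 2640 and 3042 in WT TAC, 1229 in KO Sham and 1379.5 in WT Sham, and all 3 passed in KO TAC versus WT TAC (Stard10 higher, Dkk3 and Myl4 lower). WT TAC stood apart from the rest: over all genes the WT TAC arrays correlated with the 4 others at 0.917 to 0.931, while those 4 correlated with each other at 0.984 to 0.995. Neutrophil markers (6 of 6 above background) summed to 1051 and 1334 in KO TAC, 9833 and 14720 in WT TAC, 1385 in KO Sham and 1154 in WT Sham. Fibroblast markers (10 of 10) summed to 21825 and 23507 in KO TAC, 34403 and 35458 in WT TAC, 22906 in KO Sham and 20442 in WT Sham. The cardiomyocyte marker sum was 189280 and 190400 in KO TAC, 163340 and 156900 in WT TAC, 190810 in KO Sham and 194780 in WT Sham. In bulk tissue, fewer cells of a type and less RNA per cell cannot be told apart, and the part of cell makeup in the results below was not tested.

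**Figure D1:**
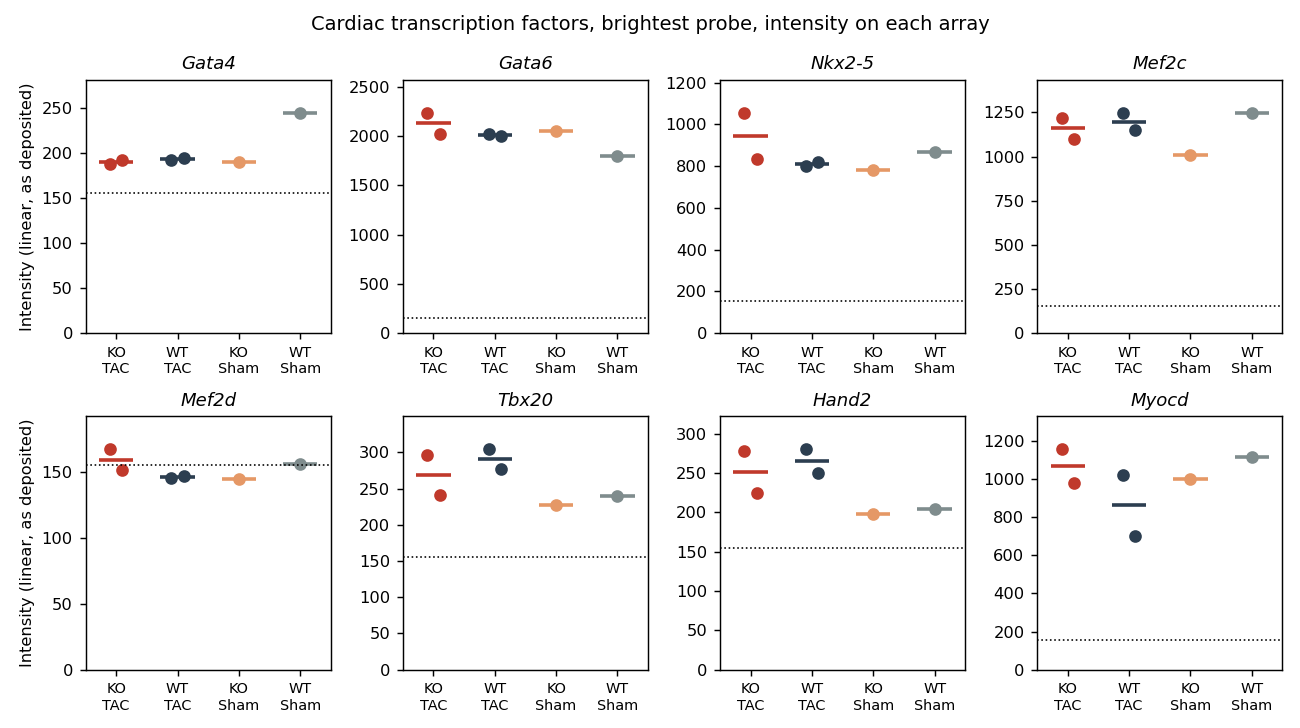
Intensity of the brightest probe of each of 8 cardiac transcription factors on each of the 6 arrays (points; horizontal bars are group means, dotted line the highest background level of any array, 155.1), linear axes from 0. The TAC arrays of KO and WT overlap or lie close together for every gene but Mef2d and Nkx2-5, and the single WT Sham array is the high one for Gata4.

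KO TAC versus WT TAC asked how the pressure-overloaded ventricle differs without Kdm3a. None of the 8 transcription factors passed the test (limma, Benjamini-Hochberg adjusted over all 9649 genes, threshold 0.05), and none had an unadjusted p under 0.05. Over all genes 41% passed, 2075 of them higher (21.5%) and 1882 lower (19.5%) in KO TAC, and 50.2% had an unadjusted p under 0.05. The factors had a median absolute log2 fold change of 0.17 and a maximum of 0.38, against a median of 0.38 over all genes. Fold changes are on the background-corrected log2 scale, on which they come out larger than ratios of the deposited intensities. The signed median was 0.02 for the factors and 0.04 over all genes, with 4 factors above 0 and 4 below. The 95% intervals of all 8 lay within 2-fold either way, the outermost bounds being -0.66 for Tbx20 and 0.92 for Myocd. The same held for 67.9% of all genes. A p that missed the threshold does not show that levels were equal, and the intervals give the sizes that remain possible.

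The GATA factors differed little. Gata6 read 2237 and 2022 in KO TAC and 2025 and 2003 in WT TAC, with 2049 in KO Sham and 1797 in WT Sham. The KO TAC and WT TAC arrays overlapped, and the log2 fold change was 0.08 ± 0.14 (SE, n = 2 each, limma adjusted p = 0.66). Gata4 read 187 and 192 in KO TAC and 192 and 194 in WT TAC, with a log2 fold change of -0.05 ± 0.13 (adjusted p = 0.77). Its 4 TAC arrays lay within a few intensity units of each other.

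Nkx2-5, the homeodomain factor of early heart muscle, read 1055 and 835 in KO TAC and 801 and 821 in WT TAC. Both KO TAC arrays were higher than both WT TAC arrays, yet KO TAC 2 lay nearer to WT TAC than to KO TAC 1. The log2 fold change was 0.24 ± 0.17 (adjusted p = 0.29). KO Sham read 783 and WT Sham 866, so that WT Sham was above KO TAC 2.

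Among the MEF2 genes, which turn calcium signals into contractile and metabolic gene expression, Mef2c read 1218 and 1102 in KO TAC and 1247 and 1148 in WT TAC. The groups overlapped, with a log2 fold change of -0.05 ± 0.14 (adjusted p = 0.80). Mef2d, which is known in the mouse heart for relaying stress signals downstream of class IIa histone deacetylases, read 167 and 151 in KO TAC and 145 and 147 in WT TAC. The groups did not overlap, and the probe was above background in KO TAC 1 alone among the 4 TAC arrays. The log2 fold change was 0.38 ± 0.17 (adjusted p = 0.13).

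Tbx20, a T-box factor needed to keep adult heart muscle contracting, read 296 and 241 in KO TAC and 304 and 277 in WT TAC. Its log2 fold change was -0.19 ± 0.19 (adjusted p = 0.46). Hand2, a factor of the right ventricle and outflow tract in the embryo, read 278 and 225 in KO TAC and 279.96 and 249.8 in WT TAC. Its log2 fold change was -0.14 ± 0.21 (adjusted p = 0.62). For both genes the KO TAC arrays spanned part of the WT TAC range, and their spread was wider than the difference between the groups.

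Myocd read 1154 and 981 in KO TAC and 1021 and 700.4 in WT TAC. WT TAC 2 was the lowest of all 6 arrays and the other 5 lay between 981 and 1154. The log2 fold change was 0.38 ± 0.23 (adjusted p = 0.23). It was 0.69 without WT TAC 1 and 0.07 without WT TAC 2.

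**Figure D2:**
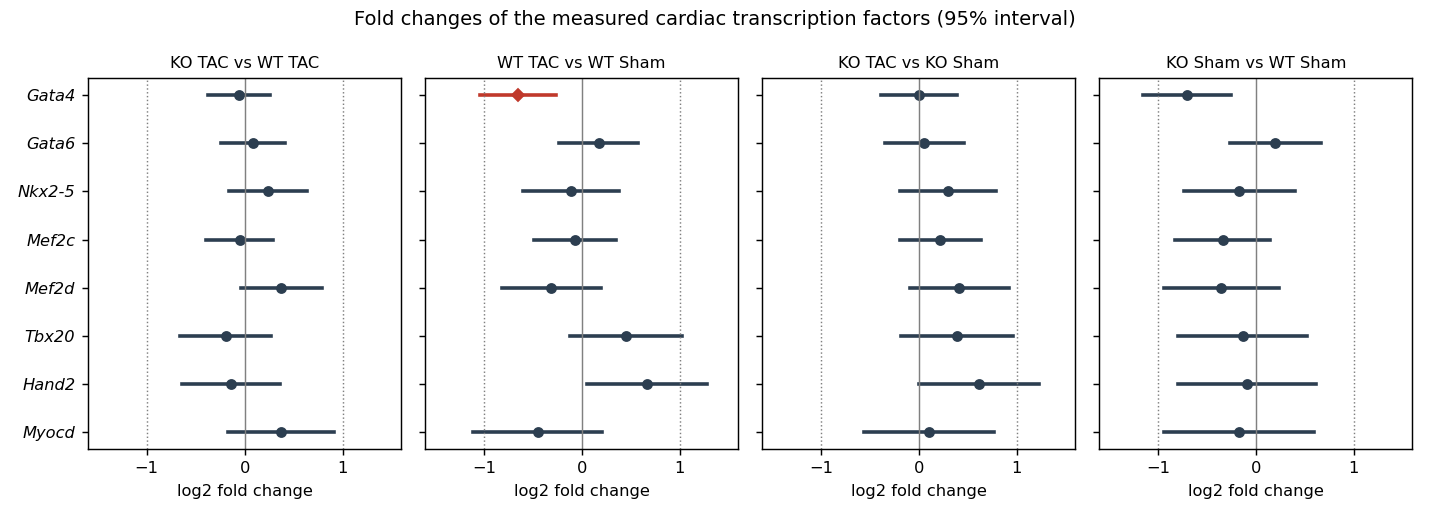
Log2 fold change (points) with 95% interval (lines) of each factor in 4 comparisons, from the limma fit over all genes; dotted lines mark 2-fold and a red diamond marks an adjusted p under 0.05. In KO TAC vs WT TAC all 8 intervals lie inside the dotted lines, and Gata4 in WT TAC vs WT Sham (-0.65) is the one red point.

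WT TAC versus WT Sham asked what pressure overload did in the presence of Kdm3a. Of the 8 factors 1 passed, Gata4, while 31.1% of all genes did, and 15.8% of all genes passed as lower. At an unadjusted p under 0.05 there were 2, Gata4 and Hand2, against 43.9% of all genes. The factors had a median absolute log2 fold change of 0.38, against 0.40 over all genes. Gata4 was lower in WT TAC, at 192 and 194, against 244 in WT Sham, with a log2 fold change of -0.65 ± 0.16 (limma adjusted p = 0.0254), 1.57-fold lower. This call rests on 1 array. WT Sham was the only array above 194, and KO Sham at 189.9 lay with the TAC arrays. Leaving out WT TAC 1 or WT TAC 2 kept the size and lost the call (adjusted p = 0.0837 and 0.0917). The difference between KO Sham and WT Sham was as large (-0.71 ± 0.19) but did not pass (adjusted p = 0.47).

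Hand2 and Tbx20 lay higher in TAC arrays than in Sham arrays of either genotype. Hand2 was at 278 and 225 in KO TAC against 199 in KO Sham, and at 279.96 and 249.8 in WT TAC against 204 in WT Sham. All 4 TAC arrays were above both Sham arrays. The log2 fold change was 0.62 ± 0.26 in KO (adjusted p = 0.9998) and 0.67 ± 0.26 in WT (adjusted p = 0.0898). The effect in KO minus the effect in WT was -0.05 ± 0.36 (95% interval -0.92 to 0.81). Tbx20 was at 296 and 241 in KO TAC against 228 in KO Sham, and at 304 and 277 in WT TAC against 239.97 in WT Sham. Its 4 TAC arrays were again above both Sham arrays, although KO TAC 2 was above WT Sham by less than 2 intensity units. The log2 fold change was 0.39 ± 0.24 in KO and 0.45 ± 0.24 in WT. The difference between these effects was -0.06 ± 0.34 (95% interval -0.87 to 0.75). How many of all genes had their 4 TAC arrays above both Sham arrays was not counted, so this order is given as a description. The second kept Tbx20 probe, above background on 2 arrays only, did not follow it. On that probe KO TAC 1 read 125, against 142 in KO Sham.

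The mean of the TAC effects in KO and WT was added after these values had been seen. It was 0.64 ± 0.18 for Hand2 (adjusted p = 0.0637) and 0.42 ± 0.17 for Tbx20 (adjusted p = 0.145), and neither passed, while 12.7% of all genes did. At an unadjusted p under 0.05 there were 3 factors, Gata4 (lower), Tbx20 and Hand2, against 31.3% of all genes. For Hand2 the order of levels was WT TAC, KO TAC, WT Sham and KO Sham. The 2 TAC groups did not differ beyond the spread of their arrays, and the 2 Sham arrays, which differed by -0.09 ± 0.29 on the log2 scale in KO versus WT, had no replicates.

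Hand2 had 1 promoter in RefSeq (GRCm38.p6, chr8:57320733-57321032, forward strand). It is shown because Hand2 had the largest mean TAC effect of the 8 factors. The window runs from 250 bases before to 50 bases after the transcription start, 5′ to 3′. Capitals mark the GATA motif (TGATAA or AGATAA) and the NKX2-5 element (AAGTG), each on either strand.
Hand2: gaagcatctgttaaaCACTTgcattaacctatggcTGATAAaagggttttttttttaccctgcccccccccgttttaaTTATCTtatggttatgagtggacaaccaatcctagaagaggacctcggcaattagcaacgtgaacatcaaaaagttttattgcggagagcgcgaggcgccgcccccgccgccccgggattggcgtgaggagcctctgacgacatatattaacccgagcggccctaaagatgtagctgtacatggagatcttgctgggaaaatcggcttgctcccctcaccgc
It held 2 GATA motifs, beginning at -215 and -172 from the start, and 1 NKX2-5 element at -235. Of all 32851 promoters in the table, 18.6% held a GATA motif and 46.4% an NKX2-5 element, so neither match sets Hand2 apart, and a match is no evidence of binding. RefSeq's table held promoters for 6 of the 10 factors, 8 in all. Of these, Hand2's was the 1 with a GATA motif, and 4 held an NKX2-5 element.

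KO TAC versus KO Sham asked what pressure overload did without Kdm3a. No factor passed (limma), and 0% of all genes did. The count of genes with an unadjusted p under 0.05 was 254 (2.63%), and among the factors it was 1, Hand2. The factors had a median absolute log2 fold change of 0.26, against 0.11 over all genes. All of these values are set against 1 KO Sham array. The signed median was 0.26 for the factors and -0.01 over all genes, and 7 of 8 factors were higher in KO TAC. The share of all genes that were higher was not counted. The same 7, all but Gata4, were also higher in KO TAC 1 than in KO TAC 2, where 52% of all genes were. KO TAC 1 minus KO TAC 2 on the log2 scale was 0.53 for Hand2, 0.48 for Tbx20, 0.40 for Mef2d and 0.38 for Nkx2-5. In WT TAC, 5 of 8 were higher in replicate 1 (47.5% of all genes). Without KO TAC 1, Gata6 (-0.02), Myocd (-0.03) and Gata4 (0.04) changed sign in KO TAC versus KO Sham, and the others did not.

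KO Sham versus WT Sham, 1 array against 1, showed no factor past the test, against 0.0622% of all genes. At an unadjusted p under 0.05 there was 1 factor, Gata4, against 7.97% of all genes. The TAC effect in KO minus that in WT passed for no factor and for 14% of all genes. At an unadjusted p under 0.05 there were 2, Gata4 (0.65 ± 0.23, adjusted p = 0.109) and Mef2d (0.73 ± 0.30, adjusted p = 0.151), against 31.9% of all genes. For both genes the WT Sham array was above both WT TAC arrays. The Mef2d probe was above background in WT Sham and KO TAC 1 alone, and a high reading on either raises this difference. It was kept only through these 2 arrays, so its p is no test.

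Probes of one gene did not always move together. Mef2c had 3 kept probes. The brightest (ILMN_2732465) and the second (ILMN_2887992) gave log2 fold changes of -0.05 ± 0.15 and 0.06 ± 0.17 in KO TAC versus WT TAC in a fit over all kept probes. The third, ILMN_1214950, read 307 and 317 in KO TAC and 276 and 226 in WT TAC, with 291 in KO Sham and 329 in WT Sham. Its groups did not overlap, and its fold change was 0.52 ± 0.19 (limma adjusted p over 16688 probes = 0.0705), where 38.5% of probes passed. Which transcripts the 3 probes detect was not given in the sources used here. Myocd had 4 kept probes. The 2 bright ones gave 0.38 ± 0.23 and 0.31 ± 0.21, while the dim ones, above background on 5 and 4 arrays, gave -0.01 ± 0.23 and -0.37 ± 0.14. The brightest 3 shared the low value of WT TAC 2, and the dimmest did not. The second Tbx20 probe, above background on 2 arrays, gave -0.37 ± 0.36.

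**Figure D3:**
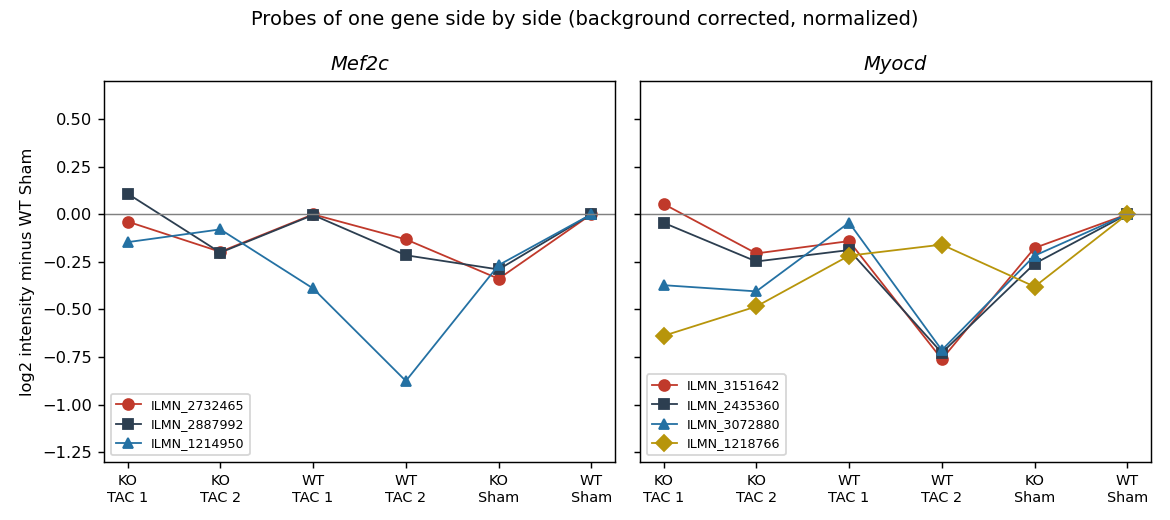
Background-corrected, normalized log2 intensity of each kept probe of Mef2c (3 probes) and Myocd (4 probes) on the 6 arrays, minus its value in WT Sham. The third Mef2c probe is low in WT TAC while the other 2 are not, and 3 of the 4 Myocd probes are low in WT TAC 2.

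Mef2d, Myocd and Nkx2-5 had the 3 largest absolute changes in KO TAC versus WT TAC, and for each the genes with the most similar pattern over the 6 arrays were listed by Euclidean distance on the centred log2 scale among 9648 other genes. For Mef2d these were Mthfs, Insig1 and Paip1 (distance 0.14, 0.14 and 0.15). For Myocd they were Kin, Mief1 and Carm1 (0.12, 0.15 and 0.18). For Nkx2-5 they were Dpp6, Gatad1 and Git2 (0.13, 0.14 and 0.15). With 6 arrays and so many genes, some patterns come close whatever the gene, and these names are given as a description.

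The paralogs of the factors, other GATA, NKX2, MEF2, TBX and HAND genes, were mostly dim. Of 21, 18 had a probe and 3 were tested, Gata2, Mef2b and Tbx3. None passed in KO TAC versus WT TAC, where the median log2 fold change was 0.26 against 0.04 over all genes. Tbx3, a repressor that marks the conduction system, read 307 and 416 in KO TAC, 304 and 267 in WT TAC, 371 in KO Sham and 528 in WT Sham.

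Of 30 other transcription factors of the heart, 23 were tested in KO TAC versus WT TAC, and 7 were higher, 5 lower and 11 did not pass, with a median log2 fold change of 0.18 against 0.04 over all genes. That share is to be read against the 41% of all genes that passed. The 5 lower ones include Foxc2, which was kept only through the WT TAC arrays, where it was high. How many of all genes were kept through 1 group alone was not counted. Hopx, a homeodomain-only protein that restrains serum response factor, read 13155 and 13371 in KO TAC, 3697 and 3022 in WT TAC, 11666 in KO Sham and 10491 in WT Sham. WT TAC was far below the 4 other arrays, and the log2 fold change was 2.02 ± 0.15 (limma adjusted p = 0.000258). Tcf15, a basic helix-loop-helix factor, read 588 and 591 in KO TAC, 202 and 209 in WT TAC, 541 in KO Sham and 584 in WT Sham. Here too WT TAC was below the 4 other arrays. Tcf15 was 4.77-fold higher in KO TAC than in WT TAC (2.25 ± 0.13 on the log2 scale, adjusted p = 0.000118).

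The forkhead genes Foxc1 and Foxc2, which act in vessel and outflow tract formation, went the other way. Foxc1 read 166 and 159 in KO TAC and 307 and 317 in WT TAC, with 157 in KO Sham and 144 in WT Sham. Its log2 fold change was -1.83 ± 0.14 (adjusted p = 0.000263). Foxc2 read 129 and 128 in KO TAC, not above background, and 198 and 204 in WT TAC. Its probe was above background in the 2 WT TAC arrays alone, so it was kept only through the group where it was high. On the background-corrected scale, set against the background level, it was at least 1.95-fold lower in KO TAC. The fitted log2 fold change of -1.88 ± 0.13 (limma adjusted p = 0.000204) uses readings below background, and its p is no test of that bound.

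Partners and upstream regulators of the factors, 19 tested of 26, gave 4 higher, 3 lower and 12 that did not pass, with a median log2 fold change of 0.10, where 41% of all genes passed. Mapk14, the p38 kinase that phosphorylates MEF2 proteins, read 1402 and 1343 in KO TAC and 652 and 571 in WT TAC, with 1337 in KO Sham and 1497 in WT Sham. It was 2.51-fold higher in KO TAC (1.33 ± 0.15 on the log2 scale, adjusted p = 0.000971). Rcan1, a calcineurin inhibitor that is itself an NFAT target, had a log2 fold change of -1.18 ± 0.16 (adjusted p = 0.00197, 3317 and 2657 in KO TAC, against 6611 and 6600.0 in WT TAC). Ankrd1, a stress-induced ankyrin repeat cofactor, had one of -1.17 ± 0.14 (adjusted p = 0.00144, 16074 and 13907 in KO TAC, against 34022 and 32786 in WT TAC). Wwtr1, the co-activator TAZ, had one of -0.88 ± 0.20 on its brightest probe (adjusted p = 0.0132, 1118 and 1542 in KO TAC, against 2457 and 2196 in WT TAC), but its other 2 probes gave -0.07 and 0.05.

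The direct targets of the factors in heart muscle, 20 tested of 25, gave 5 higher, 6 lower and 9 that did not pass, with a median log2 fold change of 0.07, where 41% of all genes passed. The 5 higher ones, named after their values were seen, were Ckm (1.44 ± 0.19), Kcnh2 (1.23 ± 0.20), Gja5 (0.80 ± 0.15), Myh6 (0.77 ± 0.15) and Tnni3 (0.70 ± 0.14). The 4 described next had the largest change, and all were lower. Myh7, the fetal heavy chain of myosin, read 291 and 233 in KO TAC, 3051 and 2911 in WT TAC, 279 in KO Sham and 342 in WT Sham. It was 18.4-fold lower in KO TAC (-4.20 ± 0.20 on the log2 scale, adjusted p = 5.959e-05). Nppa, encoding atrial natriuretic peptide, read 8244 and 4465 in KO TAC, 37560.0 and 40864 in WT TAC, 8317 in KO Sham and 9185 in WT Sham, with a log2 fold change of -2.71 ± 0.28 (adjusted p = 0.000766). Nppb, encoding brain natriuretic peptide, read 13879 and 6537 in KO TAC, 37191 and 39781 in WT TAC, 12312 in KO Sham and 13525 in WT Sham (-2.03 ± 0.33, adjusted p = 0.00407). Acta1, skeletal α-actin, read 7868 and 3586 in KO TAC, 33790.2 and 32228 in WT TAC, 8539.9 in KO Sham and 19904 in WT Sham (-2.66 ± 0.34, adjusted p = 0.00169). Nppa, Nppb and Acta1 in WT TAC came near the brightest intensity on the arrays, 43297. Ankrd1, described above, was as bright in WT TAC as Acta1. The effect of that on the folds of these genes was not tested. For Nppa, Nppb and Acta1, KO TAC 2 was below every other array.

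**Figure D4:**
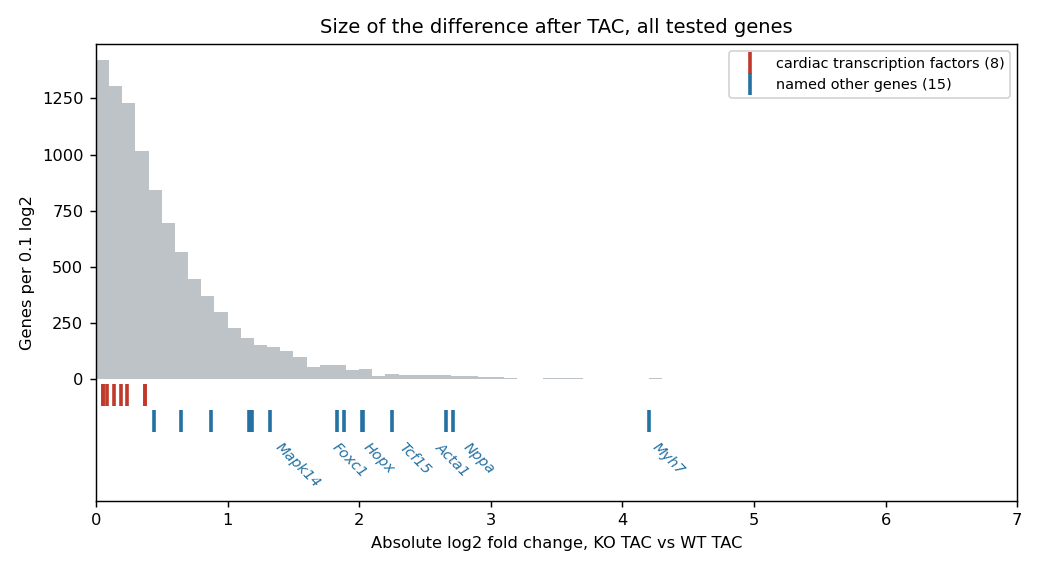
Number of genes per 0.1 log2 step of the absolute fold change, KO TAC vs WT TAC, over all 9649 tested genes; red ticks under the axis are the 8 cardiac transcription factors and blue ticks the named genes of the other lists at their fitted values. The red ticks end at 0.38, where Myh7 lies at 4.20.

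The promoters of 4 of these genes are shown with the elements that the factors are known to bind, since 3 of them were lower and 1 (Hopx) higher in KO TAC. They are RefSeq windows of GRCm38.p6 as above: Nppa chr4:148000472-148000771 and Nppb chr4:147985650-147985949 on the forward strand, Acta1 chr8:123894726-123895025 and the first of 2 Hopx promoters chr5:77115074-77115373 on the reverse strand, all read 5′ to 3′. Capitals mark the GATA motif, the NKX2-5 element, the T-box motif (AGGTGT), the CArG box of serum response factor and myocardin, and the MEF2 site, on either strand.
Nppa: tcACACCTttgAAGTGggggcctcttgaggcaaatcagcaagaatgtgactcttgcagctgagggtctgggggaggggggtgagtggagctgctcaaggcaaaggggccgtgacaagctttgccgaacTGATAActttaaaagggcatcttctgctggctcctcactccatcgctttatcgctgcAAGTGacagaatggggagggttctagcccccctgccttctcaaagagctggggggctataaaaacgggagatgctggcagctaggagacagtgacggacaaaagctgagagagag
Nppb: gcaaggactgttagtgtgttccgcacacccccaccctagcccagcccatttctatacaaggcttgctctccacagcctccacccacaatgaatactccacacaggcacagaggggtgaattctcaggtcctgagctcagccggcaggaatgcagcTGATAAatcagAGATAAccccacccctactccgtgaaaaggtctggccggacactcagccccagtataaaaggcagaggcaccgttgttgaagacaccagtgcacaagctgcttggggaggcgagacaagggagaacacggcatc
Acta1: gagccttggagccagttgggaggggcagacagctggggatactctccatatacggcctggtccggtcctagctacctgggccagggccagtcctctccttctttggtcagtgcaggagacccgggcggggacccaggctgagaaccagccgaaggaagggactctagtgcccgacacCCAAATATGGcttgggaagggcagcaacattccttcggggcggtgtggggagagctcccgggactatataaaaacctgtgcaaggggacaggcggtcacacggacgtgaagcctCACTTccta
Hopx: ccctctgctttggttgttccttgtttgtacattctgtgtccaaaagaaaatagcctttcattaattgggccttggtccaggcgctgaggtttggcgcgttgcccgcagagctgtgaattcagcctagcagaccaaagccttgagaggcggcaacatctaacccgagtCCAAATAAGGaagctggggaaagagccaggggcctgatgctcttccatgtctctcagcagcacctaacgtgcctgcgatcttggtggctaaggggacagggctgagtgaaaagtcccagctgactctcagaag
Nppa held a GATA motif at -122, NKX2-5 elements at -239 and -65 and a T-box motif at -248. Nppb held GATA motifs at -95 and -84. Acta1 held a CArG box at -73 and an NKX2-5 element at 42, and Hopx held a CArG box at -83. Of all 32851 promoters, 13.7% held the T-box motif, 1.63% the CArG box and 3.19% the MEF2 site. The CArG box stood in the promoter of Acta1, which was lower in KO TAC, and in that of Hopx, which was higher. The 4 promoters were picked by hand from the changed genes, so their motifs are no comparison with these shares. A match is no evidence of binding, and the other Hopx promoter is not described.

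The smooth muscle targets of myocardin, 7 tested of 9, gave 1 higher and 2 lower, with a median log2 fold change of -0.02. Over all genes 41% passed, and the calls below are to be read against that share. Which cells of the bulk ventricle gave these readings was not tested. Des, encoding desmin, read 13525 and 11716 in KO TAC and 27201 and 29133 in WT TAC (-1.17 ± 0.15, adjusted p = 0.00148). Vcl, encoding vinculin, was lower (-0.64 ± 0.17, adjusted p = 0.0233) and Smtn, encoding smoothelin, was higher (0.44 ± 0.13, adjusted p = 0.0361). Acta2, smooth muscle α-actin, read 10609 and 7868 in KO TAC and 8055 and 10667 in WT TAC, and its groups overlapped. The summed level of smooth muscle and pericyte markers (7 of 8 above background) overlapped too, at 14105 and 11027 in KO TAC and 10775 and 13431 in WT TAC.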

How the data were processed

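The authors hybridised total RNA to Illumina mouse bead arrays, which were read out with GenomeStudio 2011.1 per the labels. Each deposited value is a probe's linear intensity. The authors had quantile normalized these intensities, since the sorted values of any 2 arrays differed by 0.836% or less. A table of signals before normalization, with its detection p-values, was not used because its 6 signal columns could not be tied to samples. Background was corrected with limma nec (robust, offset 16) on 1542 receptor probes, followed by log2 and quantile normalization. Of 45281 probes, 16688 were above background on at least 2 of 6 arrays, and each of 9649 genes was represented by its brightest kept probe. Gene symbols came from the platform annotation (34885 probes with 1 symbol, 18 with several and 10378 with none) and were updated through gene identifiers, of which 34807 were found in GRCm38.p6.

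A model of 4 group means was fitted (limma 3.58.1, R 4.3.3, 2 residual and 4.62 prior degrees of freedom). The spread came from the TAC pairs, and each single Sham array was assumed to vary like them. The number of arrays limits the precision. Exact permutation of 2 against 2 cannot go below p = 0.333. Benjamini-Hochberg adjustment ran over all genes, errors are standard errors, and the fit was tested on simulated data. The factors, gene lists and marker lists were chosen with earlier results of these data known. Named were all 10 factors, Kdm3a, up to 4 genes per list with the largest change past the test, and the 3 genes most like each of the 3 factors with the largest change. Alternatives were other background corrections, median centring, no filter, probe averaging or every probe, trend, a replicate block, the methods' t-test and leaving out each TAC array.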

Additional observations from a re-analysis of the deposited data

Results flagged for a closer look

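The effect of TAC differed between KO and WT, by the test of the difference itself (limma, adjusted over all genes), for 9 of the named partners, targets and other transcription factors. These genes had been named for a large difference between KO TAC and WT TAC, which uses the same TAC arrays, so their number is no comparison with the factors. Over whole lists the difference passed for 0 of 8 cardiac transcription factors, 5 of 23 other transcription factors, 2 of 19 partners, 6 of 20 direct targets and 1 of 7 smooth muscle targets, against 14% of all genes. Values are the TAC effect in KO less that in WT, on the log2 scale. The difference was above 0 for Tcf15 (2.39 ± 0.23, adjusted p = 0.00323), Hopx (1.87 ± 0.27, adjusted p = 0.00895) and Mapk14 (1.50 ± 0.25, adjusted p = 0.0142). It was below 0 for Myh7 (-3.77 ± 0.34, adjusted p = 0.00268), Nppa (-2.57 ± 0.49, adjusted p = 0.0207), Foxc1 (-2.22 ± 0.24, adjusted p = 0.00418), Foxc2 (-1.97 ± 0.23, adjusted p = 0.0049), Ankrd1 (-1.40 ± 0.25, adjusted p = 0.0168) and Des (-1.20 ± 0.25, adjusted p = 0.0272). The values of Foxc1 and Foxc2 are fitted values of probes that were not above background in WT Sham, and for Foxc2 in any KO array. Foxc2 was kept only through the WT TAC arrays, where it was high. Its p is therefore no test, although it is counted among the 9 genes and among the 5 of 23. Each difference rests on 1 Sham array per genotype.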

How the results depend on the processing

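Over the alternatives tried, 648 of the factors' values kept their direction and side of the threshold. Another 16 changed sign without passing in either setting, 8 newly passed and 2 no longer passed. No called value reversed, but the main setting called only Gata4 in WT TAC versus WT Sham. Many of the 648 could not change direction. The trend and the block alter only the error, and leaving out a TAC array cannot move KO Sham versus WT Sham. Hand2 in WT TAC versus WT Sham passed with the replicate block (adjusted p = 0.0337) and without either KO TAC array (0.0349). Mef2d in KO TAC versus WT TAC passed without KO TAC 2 (0.58). That fit set KO TAC 1, the only TAC array where its probe was above background, against WT TAC readings that were not. The mean TAC effect of Hand2 passed with limma's trend (0.0488), with the block (0.0233) and without KO TAC 2 (0.0168), and that of Tbx20 without KO TAC 2 (0.0457). Without the filter, Tbx5 had a log2 fold change of -0.07 ± 0.12 in KO TAC versus WT TAC. The 2 replicate pairs share a number only (correlation of deviations 0.0476), and the replicate block called 4070 genes in KO TAC versus WT TAC, against 3957.

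Counts of genes called moved as follows, and the cause was not tested. In KO Sham versus WT Sham the 6 genes became 11 with normexp or with an offset of 50, 10 with median centring, 1 without the filter, 3 with averaged probes, 20 with every probe tested and 16 with the trend. Leaving out 1 TAC array gave 2 to 43. In KO TAC versus KO Sham it gave 0 to 10, against 0. In KO TAC versus WT TAC every probe tested gave 6433 probes, the methods' t-test 3373 genes unadjusted and 1 after Benjamini-Hochberg (0 factors in either), and leaving out 1 array 2110 to 3317, the lowest without WT TAC 2. In WT TAC versus WT Sham every probe gave 4605 and leaving out 1 array 1427 to 3402, against 2998. The difference between TAC effects gave 603 without the filter and 480 to 1642 with 1 array left out, against 1350. The lowest of these too came without WT TAC 2. For the mean TAC effect, 1221 became 487 without the filter, 727 without WT TAC 1 and 366 without WT TAC 2. Mef2d and the dim probes of Tbx20 and Myocd lie close to background, which limits their folds.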
